A study of Mus musculus with 6 samples.

Results

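The transcription factors that give a germinal center (GC) B cell its identity were followed through H3K4me3 and H3K4me1 maps of normal mouse GC B cells. The set held 10 protein-coding genes of 21864, given by name: Bcl6, Bach2, Pax5, Ebf1, Mef2b, Mef2c, Pou2af1, Pou2f2, Tcf3 and Foxo1. For each gene, the peaks of every library were sorted by place. A peak within 5 kb of a coding transcription start site (TSS) was a promoter peak, any other peak touching the annotated gene was a gene body peak, and a peak outside the gene but within 50 kb of a TSS was an outer peak.

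The maps came from Mint-ChIP, which barcodes nuclease-cut chromatin so that samples of few cells can be immunoprecipitated together, with 3 libraries for each mark and 50000 sorted cells per library. All 6 libraries were from WT mice, whose spleens were collected 8 days after injection of sheep red blood cells, an antigen that induces GCs. No treated or mutant group was included. The methods describe immunized mice as young adults matched for age and sex. The study uses WT for Cγ1 cre/+ mice in its other cohorts, in which Cre is driven from an immunoglobulin heavy chain locus, and whether these libraries came from such mice is not stated. The labels name the sorted cells GC Centrocytes, while the methods speak of GC B cells, and one protocol field of the labels names an H3K27Ac antibody although titles and antibody entries give H3K4me3 and H3K4me1. The labels do not say whether the 3 libraries of a mark came from separate mice, so the spread between them may be technical.

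B lineage identity is built in layers. Tcf3 (E2A), Ebf1, Foxo1 and Pax5 act together and in sequence to specify and then lock in the B cell fate. Pou2f2 (OCT2) with its coactivator Pou2af1 (OCA-B), the MADS-box factors Mef2b and Mef2c, Bcl6 and Bach2 run the GC program, in which Bcl6 and Bach2 are repressors that hold back plasma cell differentiation. H3K4me3 marks the promoters of active genes and can spread widely over genes that define a cell type, and H3K4me1 marks enhancers and the flanks of active promoters.

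The H3K4me3 libraries held 46707, 41936 and 42862 peaks and the H3K4me1 libraries 24136, 13923 and 11922. Read totals per library are not given in the files, so depth was judged from the peaks. The median H3K4me1 peak rested on 6 fragments at its summit in each library, so an absent H3K4me1 peak means that none was detectable at this depth. H3K4me3 was called in broad mode and H3K4me1 in narrow mode with a summit, and a difference in extent between the marks cannot be told apart from that difference in calling. Markers of GC B cells bore promoter H3K4me3 in every library in 10 of 10 cases, including Fas and S1pr2, against 1 of 6 T cell markers (Cd3d), 2 of 6 myeloid markers (Cd14 and Itgam) and 3 of 6 erythroid markers. The T cell, myeloid and erythroid markers had widest peaks of at most 1787 bp on average, and Cd8a, Cd4, Cd3e, Lyz2 and Mpo had no promoter peak of either mark in any library.

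Of the 10 identity factors, 8 carried wide H3K4me3 at their promoters in every library. All 10 had a promoter H3K4me3 peak in each of the 3 libraries, a condition met by 56.2% of coding genes. It was 9 of 10 with peaks of −log10 q of at least 5 or with 1 TSS per gene. With the 10000 best peaks of each list it was 7 of 10. In the 8 the widest promoter peak also lay at or above the 90th percentile of genes in all 3 libraries (Bcl6, Pax5, Ebf1, Mef2b, Mef2c, Pou2af1, Pou2f2 and Foxo1), which held for 3.42% of coding genes and for 6.09% of those with promoter H3K4me3 in every library. The members' median of mean widths was 7099 bp, beside 1901 bp over the 12286 genes with promoter H3K4me3 in every library. Bach2 and Tcf3 fell short of the 90th percentile in at least 1 library. The count of 8 fell to 5 when each list was reduced to its 10000 best peaks, where the Bcl6 domain itself was lost. It also fell to 5 when only 1 TSS per gene was used, a start that for Pou2f2 was not a coding TSS. Coordinates of the genes are given on GRCm38.

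**Figure D1:**
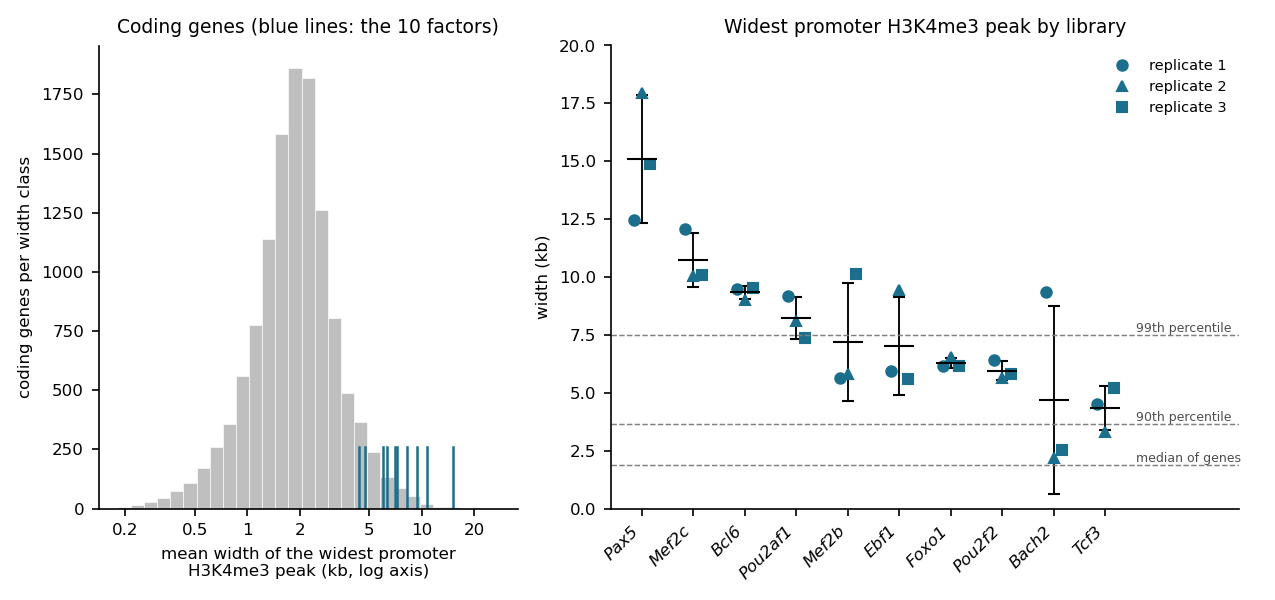
Left, number of coding genes (y axis) by mean width of the widest promoter H3K4me3 peak in kb (x axis, log scale), for 12286 genes with such a peak in all 3 libraries, with blue lines at the 10 identity factors. Right, width in kb of the widest promoter peak of each factor in each of 3 libraries (points), with mean and SD (bars) and dashed lines at the median, 90th and 99th percentile of genes; Pax5 sits highest at 12468 to 17956 bp, and Bach2 has 1 high library of 3.

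Pax5 (chr4:44524757-44710487, minus strand), which commits cells to the B lineage and represses genes of other fates, had the widest domain. Its peak measured 12468, 17956 and 14894 bp in replicates 1, 2 and 3, a mean of 15.1 ± 2.75 kb (SD, n = 3), and only 2 coding genes had a wider mean. Mef2c (chr13:83504034-83667080, plus strand), which supports B cell survival and proliferation after antigen receptor signaling, followed with 12062, 10026 and 10108 bp. Its mean was 10.7 ± 1.15 kb (SD, n = 3) and 25 genes were wider. All Pax5 libraries lay above all Mef2c libraries, and all Mef2c libraries above those of Bcl6.

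Bcl6 (chr16:23965052-23988852, minus strand), the repressor without which GCs do not form, had a wide and steady domain, with 9477, 9005 and 9541 bp and a mean of 9.34 ± 0.293 kb (SD, n = 3). It reached 2791 to 3105 bp upstream of the TSS and 6213 to 6673 bp into the gene. Pou2af1 (chr9:51213708-51240080, plus strand), whose loss abolishes GCs, gave 9183, 8083 and 7384 bp, a mean of 8.22 ± 0.907 kb (SD, n = 3). From Bcl6 downward, the ranges of neighbors in the order overlapped, so neighbors did not differ beyond the spread between libraries. Some genes further apart did, as every Bcl6 and Pou2af1 library lay above every Foxo1, Pou2f2 and Tcf3 library. Others did not. The Bach2 range of 2183 to 9374 bp overlapped the Bcl6 range of 9005 to 9541 bp, and so did the ranges of Mef2b and Ebf1.

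Mef2b (chr8:70139711-70167488, plus strand), an activator of Bcl6 in GC B cells, measured 5660, 5799 and 10120 bp, a mean of 7.19 ± 2.54 kb (SD, n = 3). Ebf1 (chr11:44617317-45008091, plus strand), the pioneer factor of early B cell development, measured 5965, 9442 and 5609 bp, a mean of 7.01 ± 2.12 kb (SD, n = 3). In each of these genes 1 library stood well above the others, replicate 3 for Mef2b and replicate 2 for Ebf1, and in both the gap between neighboring peaks was bridged in that library. When peaks less than 1 kb apart were joined first, the mean width was 10000 bp for Mef2b and 10450 bp for Ebf1.

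Foxo1 (chr3:52268336-52353221, plus strand), which sustains the dark zone program of the GC, was narrow in spread, at 6179, 6561 and 6165 bp with a mean of 6.30 ± 0.225 kb (SD, n = 3). Pou2f2 (chr7:25087344-25179726, minus strand), which binds the octamer of immunoglobulin promoters, measured 6413, 5659 and 5819 bp with a mean of 5.96 ± 0.397 kb (SD, n = 3). Tcf3 (chr10:80409514-80433647, minus strand), the E protein that acts upstream of Ebf1, had the lowest mean, 4.35 ± 0.954 kb (SD, n = 3), from 4512, 3320 and 5207 bp. Even so, 772 of the 21864 coding genes had a wider mean than Tcf3.

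Bach2 (chr4:32238804-32586108, plus strand), which restrains the plasma cell regulator Prdm1, was the gene whose width depended most on the library. Its widest promoter peak measured 9374 bp in replicate 1 but 2183 and 2538 bp in replicates 2 and 3, a mean of 4.70 ± 4.05 kb (SD, n = 3). The 9374 bp peak began 4524 bp downstream of the TSS, just inside the promoter limit, whereas the peaks of 6335 and 5700 bp at the same place began 7276 and 6542 bp downstream in replicates 2 and 3 and therefore counted as gene body peaks. Wide downstream peaks were therefore present in all 3 libraries, on either side of the promoter limit. None of the 3 coding TSSs of Bach2 lay under an H3K4me3 peak in any library. The first 2 lay in a gap between peaks ending 420 to 4237 bp upstream and peaks starting 312 to 808 bp downstream, and further peaks of 7270, 6512 and 8642 bp lay upstream.

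**Figure D2:**
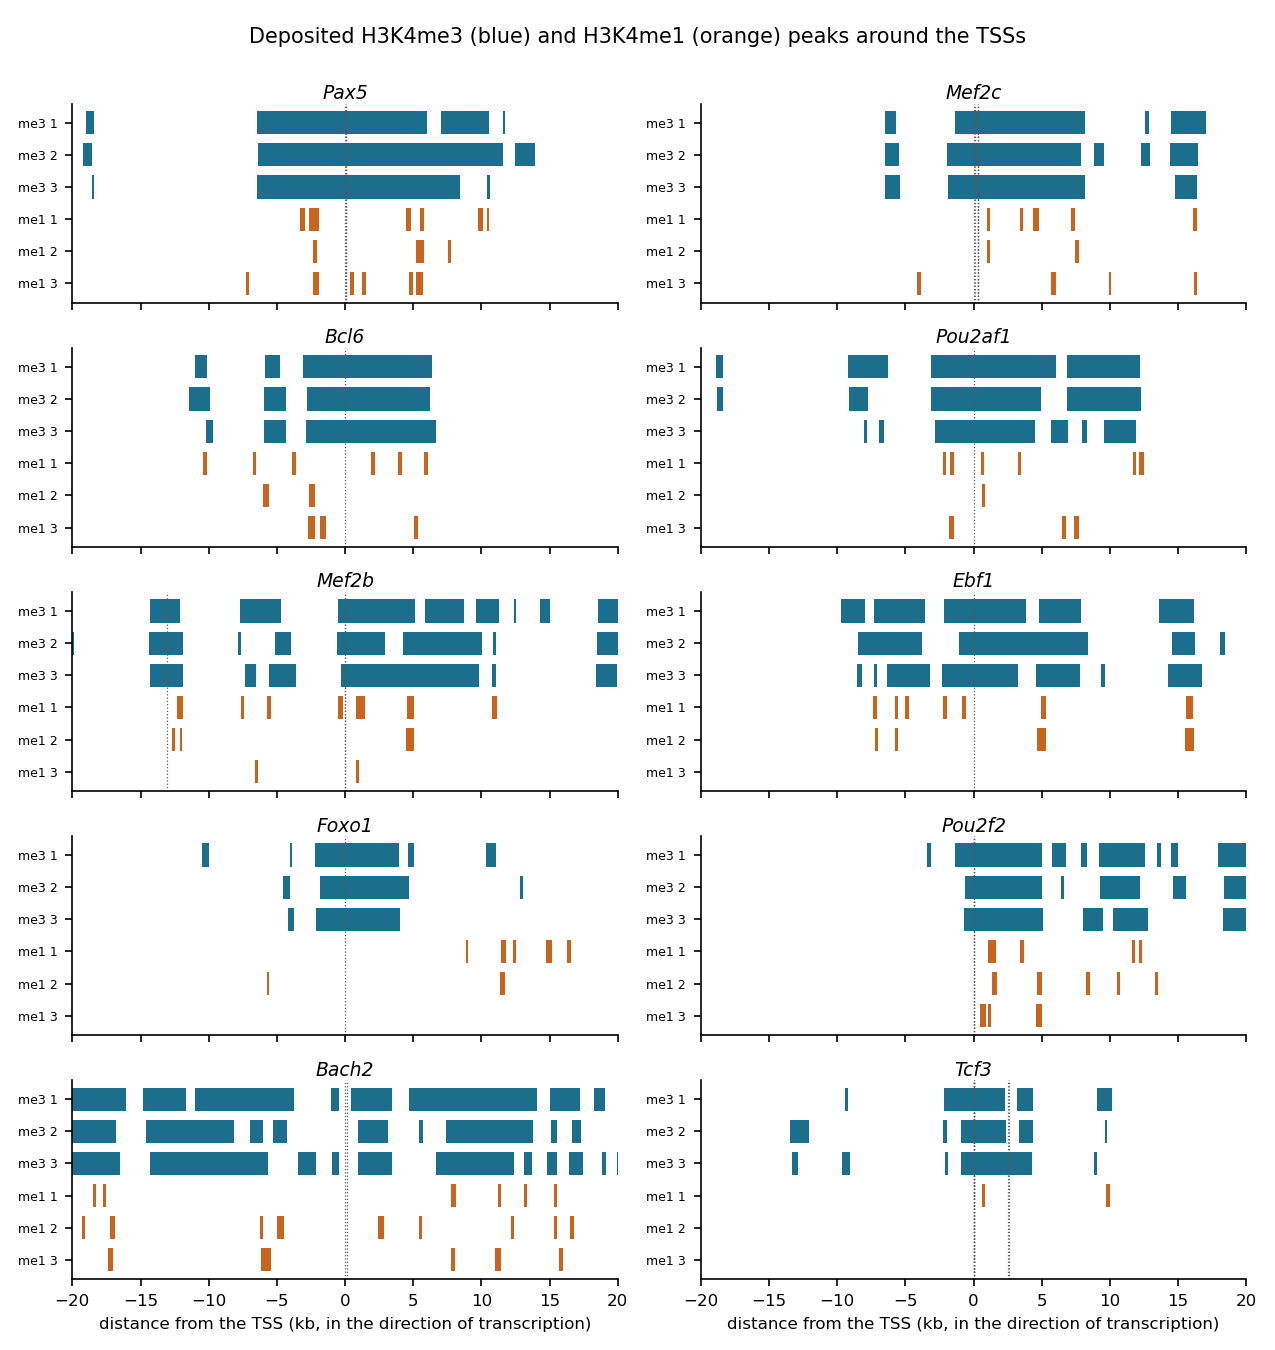
Deposited peaks within 20 kb of a TSS of each factor, with distance from the TSS in kb in the direction of transcription on the x axis and 1 row for each library (me3 1 to 3, H3K4me3 in blue; me1 1 to 3, H3K4me1 in orange); dotted lines mark coding TSSs. H3K4me3 covers the TSS at the origin of the axis in all panels but Bach2, and the second group of Tcf3 TSSs in replicate 3 alone. H3K4me1 peaks are short and seldom cover a TSS, and the Foxo1 promoter has no H3K4me1 peak within 5 kb.

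Where a gene has several starts, the marks separated them. Mef2c has 4 groups of coding TSSs. The first group, at chr13:83504034-83504240, had no peak of either mark within 5 kb in any of the 6 libraries. The second, at chr13:83524535-83524866, was covered by H3K4me3 peaks of 9529, 9862 and 10108 bp, and the third by peaks of 12062, 10026 and 6190 bp. The last TSS was not covered in any library. Tcf3 was covered at its first group of TSSs in 3 of 3 libraries and at its second group, further into the gene, in replicate 3 alone.

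Mef2b has a first TSS that it shares with a neighborhood of other genes, since the starts of Borcs8 and Rfxank lie 212 and 557 bp away. H3K4me3 covered that start with peaks of 2224, 2501 and 2415 bp. The start used by Mef2b alone, at chr8:70152778-70152781, was covered by peaks of 5660, 3533 and 10120 bp. In replicate 2 the widest promoter peak of Mef2b, 5799 bp, lay 4218 bp downstream of this start and did not cover it. The Bcl6 TSS lies 370 bp from the annotated start of the small gene Gm37419, and their H3K4me3 cannot be told apart.

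The annotated gene Pou2f2 begins at −47.21 kb from its first coding TSS, and no coding TSS used here lies in that stretch. Just outside this far end lay H3K4me3 peaks of 2308, 2130 and 2171 bp in the 3 libraries and, at −48.18 kb from the coding TSS, H3K4me1 in replicates 1 and 2. The coding TSSs themselves lay under the 5659 to 6413 bp peaks given above.

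The promoter sequences of the widest and the narrowest gene of the set are shown to compare their base composition. Both are RefSeq promoters on GRCm38, from 250 bases before to 50 bases after the gene start, on the minus strand and written 5′ to 3′, with any match to the motifs described further on in capitals.
Pax5, chr4:44710645-44710944: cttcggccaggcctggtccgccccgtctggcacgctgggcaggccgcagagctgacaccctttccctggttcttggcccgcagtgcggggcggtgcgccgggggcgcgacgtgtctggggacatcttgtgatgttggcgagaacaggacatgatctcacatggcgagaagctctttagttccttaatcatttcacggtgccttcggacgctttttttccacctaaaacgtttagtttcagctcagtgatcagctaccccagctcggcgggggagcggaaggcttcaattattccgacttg
Tcf3, chr10:80433586-80433885: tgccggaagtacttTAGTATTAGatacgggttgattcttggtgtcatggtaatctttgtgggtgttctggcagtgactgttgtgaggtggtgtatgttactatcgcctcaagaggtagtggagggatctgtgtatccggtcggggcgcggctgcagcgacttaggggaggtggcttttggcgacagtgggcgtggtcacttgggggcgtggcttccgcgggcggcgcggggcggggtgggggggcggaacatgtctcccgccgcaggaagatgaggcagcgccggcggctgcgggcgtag
The Pax5 sequence was 59.0% G and C and the Tcf3 sequence 61.7%. The frequency of the dinucleotide CG, as a ratio of observed to expected, was 0.88 in Pax5 and 1.03 in Tcf3, beside a median of 0.39 over 32544 RefSeq promoters. CG-rich starts are typical sites of H3K4me3.

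All 10 factors matched a RefSeq promoter, some with several starts. By the same ratio Foxo1 (1.1) and the first Bcl6 start (1.05) were as rich in CG as Tcf3, and both Ebf1 starts were high (0.95 and 0.82). Pou2af1 (0.36), Bach2 (0.38, its second start), Pou2f2 (0.42) and Mef2b (0.46) lay near the median. The 3 Mef2c starts gave 0.11, 0.61 and 0.23, and the lowest of these, at chr13:83503784-83504083, is the start without any peak. Pou2af1, with a ratio of 0.36, bore a wider domain than Tcf3, with 1.03, in every library.

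At these promoters, as over the genome, H3K4me1 peaks seldom covered a TSS. A promoter H3K4me1 peak was present in all 3 libraries at 6 of 10 factors (Bcl6, Pax5, Mef2b, Mef2c, Pou2af1 and Pou2f2). This was the case for 6.17% of coding genes, and for 11.0% of those with promoter H3K4me3 in every library. Pax5 had 3, 1 and 4 such peaks in replicates 1, 2 and 3, Pou2f2 had 2, 2 and 3, and Mef2c had 4, 4 and 2. Foxo1 had none in any library, Tcf3 had 1 in replicate 1, and Bach2 had 4 in replicate 2 only. Ebf1 had 4 and 1 in replicates 1 and 2 and none in replicate 3. The count of 6 fell to 3 with the 10000 best peaks of each list or with 1 TSS per gene, and to 0 with peaks of −log10 q of at least 5.

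These peaks were short, from 199 to 808 bp for the widest at each gene where one was found. In replicates 1, 2 and 3, the members had 25, 17 and 13 promoter H3K4me1 peaks, of which 15, 11 and 8 had their summit downstream of the nearest TSS. Over coding genes 57.7, 57.1 and 58.4% of such peaks did. The median distance from summit to TSS was 2162, 2227 and 1531 bp, and over coding genes it was 1344, 1430.5 and 1422.5 bp. A summit came within 500 bp of a TSS for 1, 2 and 2 of the members' peaks, and for 16.8, 14.2 and 15.4% of those of coding genes. At a single place did an H3K4me1 peak cover a member's TSS, the third TSS group of Mef2c in replicate 2. Of all H3K4me1 peaks, wherever they lay, 1.28, 0.955 and 1.08% lay over a TSS in replicates 1, 2 and 3. After a shift of 100 kb the shares were lower, at 0.563, 0.445 and 0.562%.

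Promoter coverage separated the marks at each factor. The bases covered within 5 kb of the TSSs were higher in all 3 H3K4me3 libraries than in all 3 H3K4me1 libraries at 10 of 10 factors, as at 55.8% of coding genes. Such a separation requires promoter H3K4me3 in every library, which 12286 coding genes had, and 12193 genes were separated. Nearly every gene with that H3K4me3 was thus separated, and the 10 factors did not stand out. At Pax5 H3K4me3 covered the whole window of 10080 bp in each library, and H3K4me1 covered 1474, 267 and 1221 bp. Foxo1 had 6728, 7111 and 6639 bp of H3K4me3 and no H3K4me1. At Bach2 the values were 7129, 4453 and 4437 bp of H3K4me3 against 0, 1615 and 0 bp of H3K4me1. At Bcl6 the direction turned with the 10000 best peaks of each list, to −562 bp of H3K4me3 relative to H3K4me1. The exact permutation p-value was 0.1 for each gene (two-sided, n = 3 per mark), the smallest this design can reach, so no gene could be called from it.

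Inside the genes, H3K4me1 peaks were most numerous in Ebf1 and Bach2, the longest genes of the set. A gene body H3K4me1 peak was found in all 3 libraries at 6 of 10 factors (Bach2, Pax5, Ebf1, Mef2c, Pou2f2 and Foxo1), beside 6.64% of coding genes. It was 3 of 10 with peaks of −log10 q of at least 5 (Bach2, Ebf1 and Mef2c). Length matters for such a count, and 26.0% of coding genes of 100 kb or more met it, against 4.16% of shorter genes. Ebf1, 390.8 kb long, held 35, 28 and 16 gene body H3K4me1 peaks in replicates 1, 2 and 3, and only 3 coding genes had more on average. Bach2, 347.3 kb, held 17, 13 and 12. Pax5, 185.7 kb, held 17, 7 and 5, and Mef2c, 163.0 kb, held 11, 8 and 8.

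Set against length, these 4 genes stood between the 90th and 99th percentile of long genes. The mean number of H3K4me1 peaks per 100 kb of gene was 6.74 for Ebf1, 5.52 for Mef2c, 5.20 for Pax5 and 4.03 for Bach2. Coding genes of at least 100 kb had a median of 0.16, a 90th percentile of 2.64 and a 99th percentile of 9.18. Foxo1, at 84.9 kb, was the densest of the set, with 16, 8 and 5 peaks and 11.4 per 100 kb, above the 99th percentile of 7.80 for genes under 100 kb. The same gene had no promoter H3K4me1 and at most 1 outer peak in any library.

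**Figure D3:**
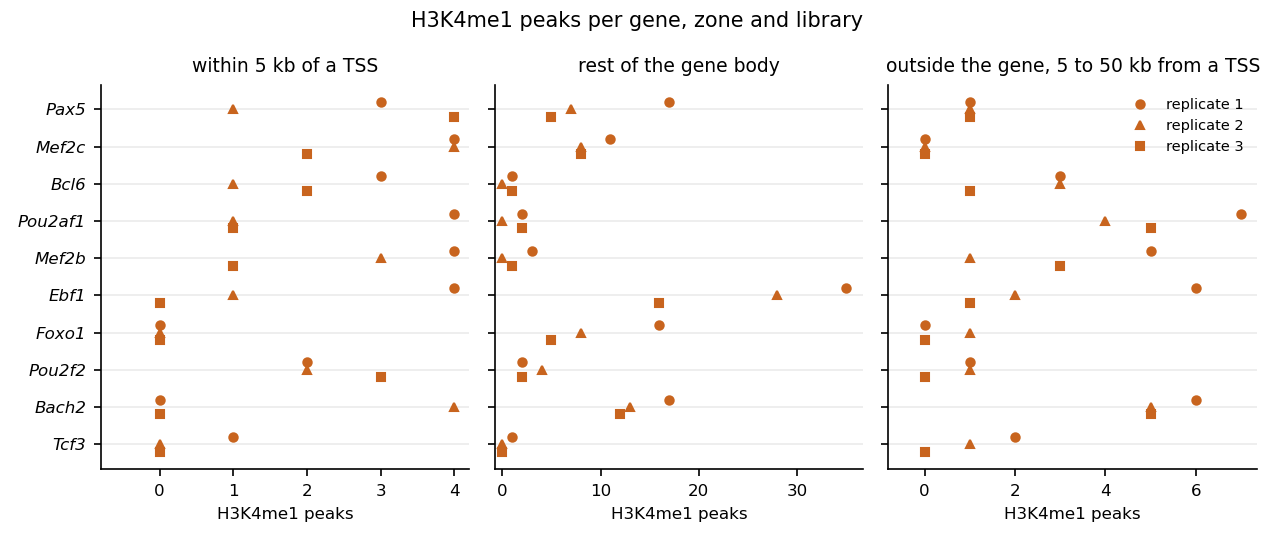
Number of H3K4me1 peaks (x axis) at each identity factor (y axis) in 3 libraries (points), within 5 kb of a TSS, in the rest of the gene body, and outside the gene at 5 to 50 kb. Ebf1 has the most gene body peaks at 16 to 35, Pou2af1 the most outer peaks in replicate 1 with 7, and replicate 1 is most often the highest library.

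Replicate 1, the H3K4me1 list with the most peaks, held the most gene body peaks at 9 of the 10 genes, alone or tied, and its peak number moved with these counts. The short genes had few. Bcl6 held 1, 0 and 1 gene body H3K4me1 peaks, Tcf3 held 1, 0 and 0, Pou2af1 held 2, 0 and 2, and Mef2b held 3, 0 and 1.

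H3K4me3 peaks were also spread through the gene bodies. A gene body H3K4me3 peak was present in all 3 libraries at 9 of 10 factors, all but Bcl6, beside 19.3% of coding genes, a share not split by gene length. When overlapping peaks of the libraries were merged, Mef2b and Pou2af1 had 0 gene body regions found in at least 2 libraries. Their widest merged promoter regions measured 11855 and 15414 bp and ran past the 5 kb limit. Ebf1 held 35, 30 and 34 such peaks and only 4 coding genes had more on average. Bach2 held 23, 18 and 22, Pax5 held 11, 10 and 13, Mef2c held 11, 11 and 10, Foxo1 held 10, 5 and 8, and Pou2f2 held 9, 7 and 6. Per 100 kb the mean was 8.44 for Ebf1, 6.54 for Mef2c, 6.10 for Pax5 and 6.05 for Bach2, beside a 90th percentile of 4.62 in long genes. Some of these peaks were as wide as promoter domains: an Ebf1 peak starting 274319 bp into the gene measured 10659 bp in replicate 1, and a Pax5 peak starting 33159 bp into the gene measured 10130 bp. Beyond its promoter domain, Bcl6 had no H3K4me3 peak in the gene in any library.

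**Figure D4:**
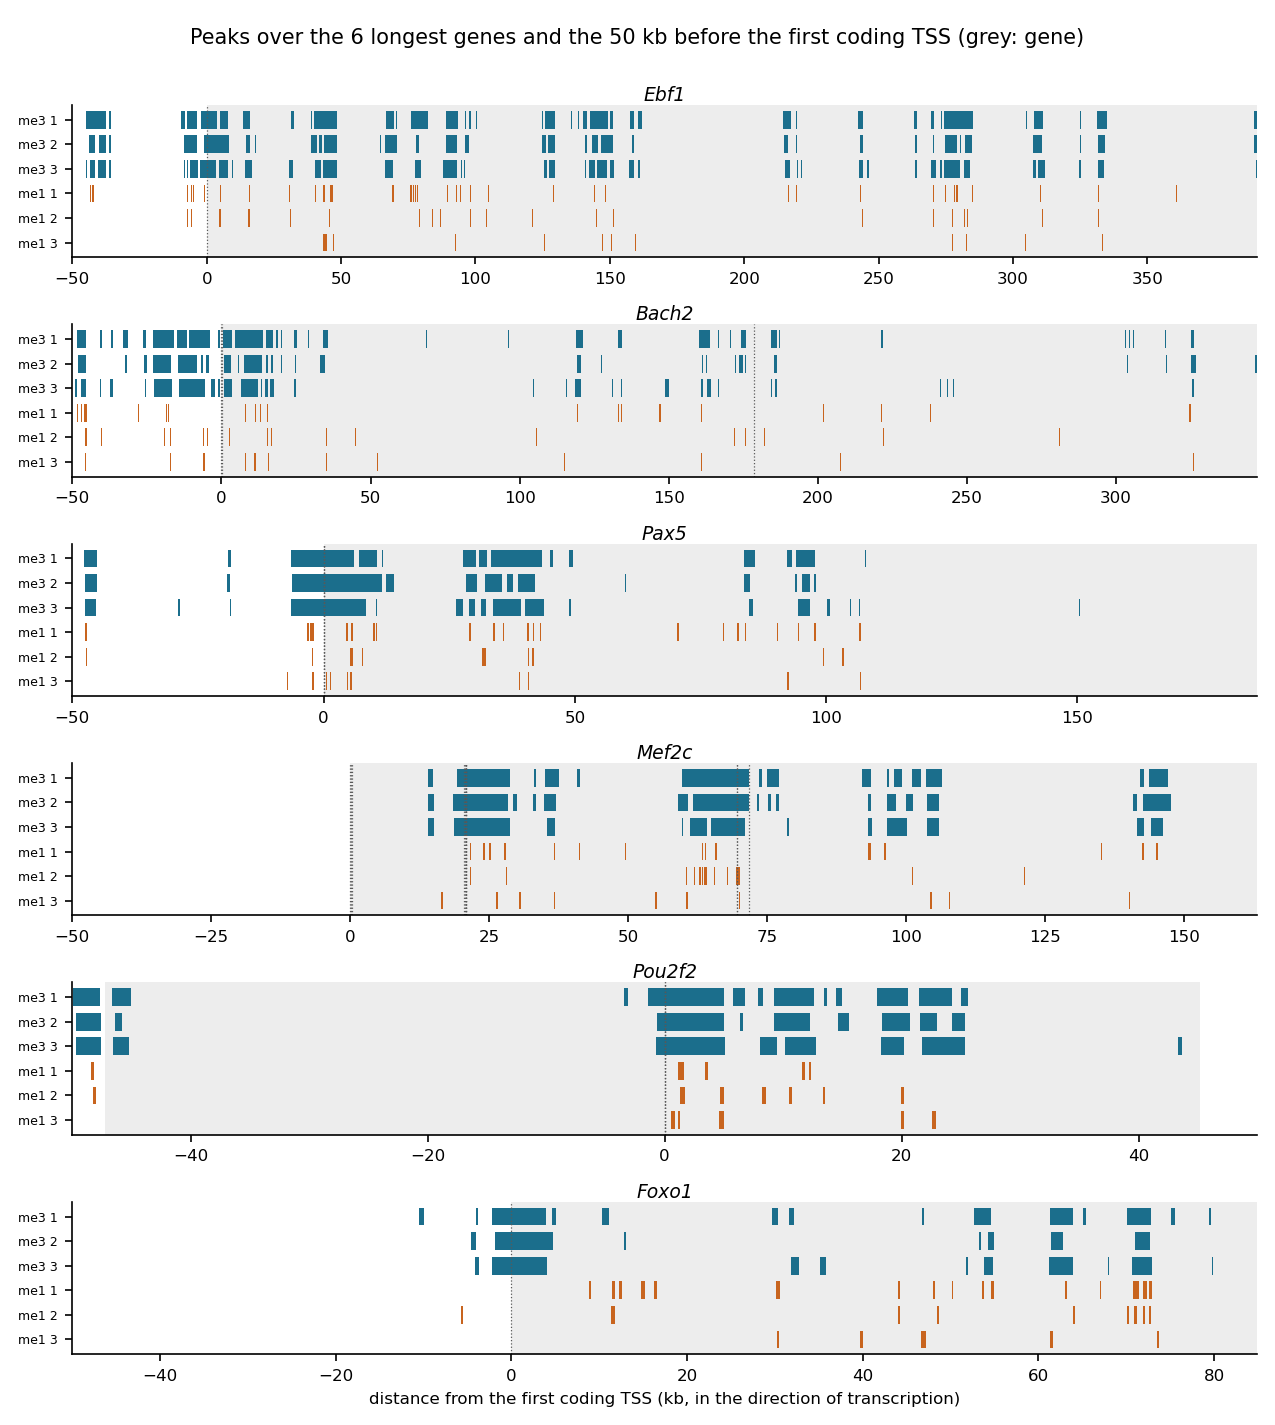
Peaks over the 6 longest genes (grey) and the 50 kb before their first coding TSS, with distance from that TSS in kb on the x axis and 1 row for each library (H3K4me3 in blue, H3K4me1 in orange); dotted lines mark coding TSSs. In Ebf1 both marks recur from the start to about 330 kb, in Pax5 they are grouped at the promoter and near 40 kb and 90 kb, and the first Mef2c start and the 50 kb before it are empty.

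Outside the genes, Pou2af1 and Bach2 had the most H3K4me1. Outer H3K4me1 was found in all 3 libraries at 6 of 10 factors (Bcl6, Bach2, Pax5, Ebf1, Mef2b and Pou2af1), beside 20.4% of coding genes, and at 0 of 10 with peaks of −log10 q of at least 5. Pou2af1 had 7, 4 and 5 outer peaks and Bach2 6, 5 and 5, and 283 of the coding genes had more on average than either. Outer H3K4me3 was found in every library at 8 of 10, against 60.3% of coding genes. Mef2c had no outer peak of either mark in any library, and Foxo1 had 1 H3K4me3 peak in replicate 1 and 1 H3K4me1 peak in replicate 2.

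Some outer peaks lay close to the start of another coding gene. These were near Zcchc7 for Pax5, near Nr2c2ap, Ncan and Tmem161a for Mef2b, near Gm32742 for Pou2af1 and near Mbd3 for Tcf3, at 148 to 1468 bp from that start, and they cannot be assigned to the factor. At Bcl6, Bach2, Ebf1, Pou2f2 and Foxo1 no outer H3K4me1 peak lay within 5 kb of another coding TSS.

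Few H3K4me1 positions recurred. When overlapping H3K4me1 peaks of the 3 libraries were merged, the members' promoters, gene bodies and outer zones held 275 regions. Of these, 60 (21.8%) were found in at least 2 libraries, here called recurrent, and 10 in all 3, and in the whole genome the recurrent share was 21.4%. Recurrent regions were spread as 13 in promoters, 32 in gene bodies and 15 in outer zones. Without H3K4me1 replicate 1, 2 or 3 there were 18, 21 and 39 recurrent regions. Among the 60, Ebf1 had 14, Bach2 9, Pax5 7, Mef2c, Foxo1 and Pou2af1 6 each, Mef2b and Pou2f2 4 each, Bcl6 3 and Tcf3 1.

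Most recurrent H3K4me1 regions overlapped H3K4me3, as they did over the genome. Of the 60, 56 (93.3%, Wilson 95% interval 84.1% to 97.4%, counting error only) overlapped an H3K4me3 region found in at least 2 libraries, and over the genome 94.4% did so. With the 10000 best peaks of each list the share was 45.2% of 31 regions. The 4 exceptions were all intronic. Foxo1 had 3 of them, at 11.54, 30.29 and 44.06 kb from the TSS, and Pax5 had 1, at 106.63 kb. The Foxo1 region at 30.29 kb had a fold enrichment of 11.2 in replicate 1 and 4.67 in replicate 3, with 16 and 8 fragments at the summit.

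The recurrent regions of 5 factors are given by their distance from a TSS. Bcl6 had them at −2.27 kb, inside its promoter domain, at −23.33 kb upstream and at 30.11 kb, past the end of the gene, and none in the gene body. Mef2b had 3 in introns near its starts, at 0.90, 1.01 and 4.54 kb from the nearest TSS, and 1 outside the gene at −7.63 kb. The region at 0.90 kb lay 145 bp from the start of Borcs8. That at −7.63 kb lay 594 bp from the start of Nr2c2ap, and neither can be assigned to Mef2b. Mef2c had 3 close together in the intron before the third group of TSSs, at −9.12, −6.29 and −5.80 kb, all inside the 12722 bp H3K4me3 region that covers those TSSs. In Foxo1 a second group of 3 lay at 70.89, 72.01 and 72.73 kb within a single H3K4me3 region of 2808 bp. Ebf1 had 11 of its 14 in introns, from 15.87 to 331.83 kb, with 3 adjoining regions at 43.83, 46.43 and 47.34 kb inside H3K4me3 of 9642 bp.

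Recurrent H3K4me3 regions, found in at least 2 of the H3K4me3 libraries, were also counted. The members had 21 recurrent H3K4me3 regions in promoters, 59 in gene bodies and 31 in outer zones, spanning 153.9, 178.8 and 66.5 kb. Of these, 12, 16 and 11 overlapped recurrent H3K4me1, which made 39 of 111 (35.1%), and over the genome 19.3% of 33357 did so. The regions were not matched for width, and a wider region has more room for an overlap of 1 bp, so this difference was not tested. Ebf1 alone had 23 in its gene body, spanning 82.2 kb, of which 8 overlapped recurrent H3K4me1. Bach2 had 13 in its gene body over 24.4 kb, with 4 overlapping recurrent H3K4me1, and Pou2f2 had 6 over 15.5 kb, with 1.

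The 10 regions found in all 3 libraries fell at 5 genes, 3 each at Ebf1 and Pax5, 2 at Pou2af1 and 1 each at Bach2 and Pou2f2. In Ebf1 they lay in introns at 46.43, 147.37 and 277.59 kb from the TSS. In Pax5 they included regions at −2.15 kb and at 40.77 kb into the gene. Those of Pou2af1 were upstream, at −47.36 kb and −29.06 kb, and the farther one lay 631 bp from the start of Gm32742. The Pou2f2 region lay 1.34 kb downstream of the TSS, and that of Bach2 upstream at −45.66 kb. The strongest single intronic site of Ebf1, 43.83 kb into the gene, had fold enrichments of 9.12 and 10.2 in replicates 1 and 3 and no peak in replicate 2.

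For Ebf1, Pou2af1, Pou2f2 and Bach2, 200 bases around the mean summit of the strongest such region of each gene are shown, as positions where all 3 libraries had an H3K4me1 peak. The sequences are GRCm38, plus strand, 5′ to 3′, with capitals at matches to a recognition motif of one of the factors, searched on both strands.
Ebf1 intron, chr11:44894811-44895010: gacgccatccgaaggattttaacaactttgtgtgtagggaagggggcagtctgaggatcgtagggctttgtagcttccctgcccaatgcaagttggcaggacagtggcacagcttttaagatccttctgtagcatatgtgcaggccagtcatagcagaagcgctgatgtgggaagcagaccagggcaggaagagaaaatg
Pou2af1 upstream, chr9:51166253-51166452: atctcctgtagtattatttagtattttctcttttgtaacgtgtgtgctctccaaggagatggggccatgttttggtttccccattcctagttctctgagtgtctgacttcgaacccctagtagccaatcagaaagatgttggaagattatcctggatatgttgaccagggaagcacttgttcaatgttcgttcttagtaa
Pou2f2 intron, chr7:25131042-25131241: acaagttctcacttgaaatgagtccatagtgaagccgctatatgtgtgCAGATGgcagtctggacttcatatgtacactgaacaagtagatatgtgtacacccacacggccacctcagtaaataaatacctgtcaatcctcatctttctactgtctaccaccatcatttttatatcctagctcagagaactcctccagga
Bach2 upstream, chr4:32193046-32193245: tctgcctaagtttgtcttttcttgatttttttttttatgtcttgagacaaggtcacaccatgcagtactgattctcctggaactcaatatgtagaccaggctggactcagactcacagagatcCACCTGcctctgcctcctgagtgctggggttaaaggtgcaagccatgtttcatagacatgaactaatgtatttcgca
The fold enrichments behind them in replicates 1, 2 and 3 were 6.87, 6.0 and 8.04 for Ebf1 and 8.24, 6.0 and 6.84 for Pou2af1. Pou2f2 gave 5.61, 6.0 and 4.39, and Bach2 gave 5.61, 5.25 and 5.12. The summits of the 3 libraries spread over 16 bp at Pou2af1, 99 bp at Ebf1 and 212 bp at Pou2f2. At Bach2 they spread over 806 bp, so the window shown there is the middle of a 1043 bp region and not a shared summit.

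Motif matches in these windows were few. The motifs searched were CAGNTG for the E-box of Tcf3, CCCNNGGGA for Ebf1, ATGCAAAT for the octamer of Pou2f2, TTCCNNGAA for Bcl6, TGTTTAC for Foxo1, CTANNNNTA for the Mef2 factors and TGACTCA for Bach2, and none of the capitals shown belongs to more than 1 motif. An E-box was present in the Pou2f2 and Bach2 windows, and repeated sequence was not masked in the search. The Tcf3 promoter had a match to the Mef2 pattern, which allows any base in its middle and so does not by itself mark a Mef2 site. The E-box was found in 51.5% of 32544 promoters of 300 bases and in 42.8% of 1845 windows of 200 bases at H3K4me1 regions found in all 3 libraries, and the Mef2 motif in 21% and 21.5%. The other motifs occurred in 1.75% to 6.60% of promoters and in 2.01% to 4.12% of windows, and in none of the sequences shown.

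Other transcription factors gave a frame for these values. Of 16 further factors active in B cells, 16 had promoter H3K4me3 in every library, 10 were wide in every library and 7 had promoter H3K4me1 in every library, and their median width was 5241 bp. The widest were Bcl11a (12130 ± 2070 bp, SD, n = 3), Irf8 (12110 ± 2750 bp) and Ikzf1 (11000 ± 270 bp), and the narrowest Spi1 (2236 ± 364 bp), Id3 (2518 ± 653 bp) and Ets1 (3015 ± 1490 bp). Their range overlapped that of the 10 factors, and none of the 16 had a mean as wide as Pax5.

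The plasma cell factors, which Bcl6 and Bach2 act against, had promoter H3K4me3 in 3 of 3 cases but were wide in none. Prdm1 measured 2860, 2665 and 2860 bp, and its promoter had no H3K4me1 peak in any library. Xbp1 and Sdc1 had means of 3008 ± 399 bp and 2387 ± 509 bp (SD, n = 3). Among 16 transcription factors of other lineages, 10 had promoter H3K4me3 in every library, none was wide, and 1 (Mef2a, the widest at 4237 ± 503 bp) had promoter H3K4me1 in every library. Gata1 and Hnf4a had no promoter H3K4me3 peak in any library, Sox2 had 1 in replicate 3 and Neurod1 in replicates 1 and 3.

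**Figure D5:**
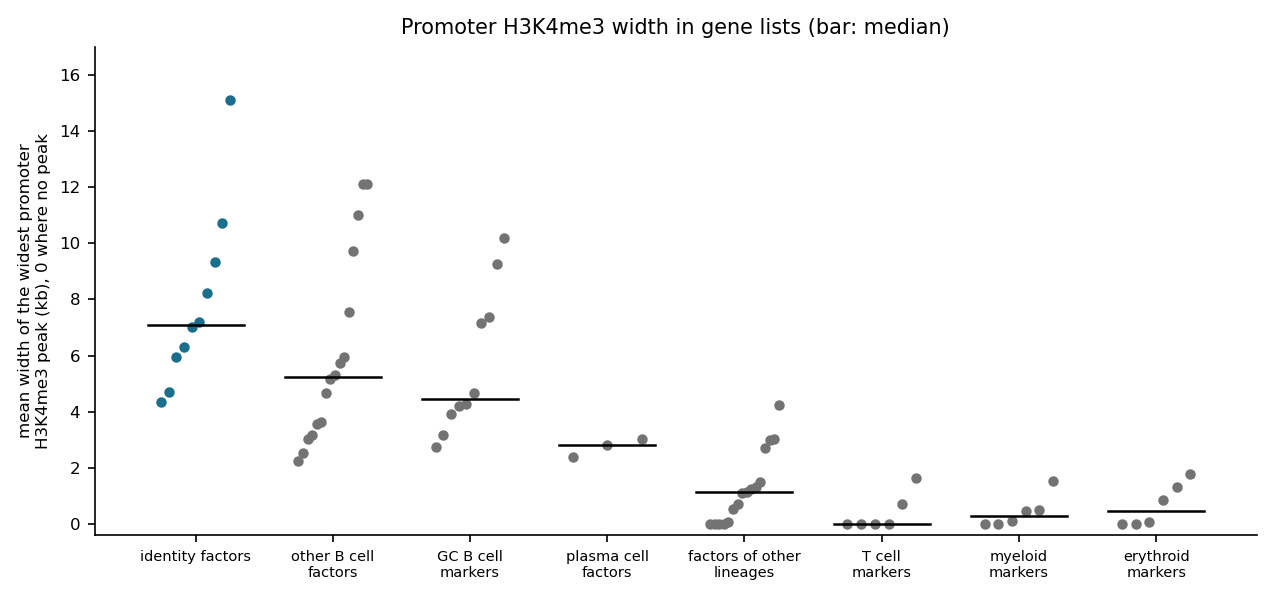
Mean width over 3 libraries of the widest promoter H3K4me3 peak in kb (y axis, 0 where no peak was found) for each gene (points) of 8 gene lists (x axis), with the median as a bar. The means of the identity factors lie between 4346 and 15110 bp and overlap the other B cell factors and GC B cell markers. They lie above the mean of every gene of the plasma cell, other-lineage, T cell, myeloid and erythroid lists. Single libraries do not all keep this order. In replicates 2 and 3 Bach2 (2183 and 2538 bp) was narrower than Xbp1 (3331 and 3130 bp). In replicate 2 Tcf3 (3320 bp) was narrower than Mef2a (4818 bp).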

How the data were processed

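Peak lists of 6 Mint-ChIP libraries were analysed, 3 for H3K4me3 and 3 for H3K4me1. Reads were processed by the authors with BWA, Picard, HOMER and Genrich per the labels (mm10), with no versions given, and the deposited lists have the layout of MACS2. The caller's settings and control are not given in the sources used here. The deposited fold enrichment is a linear ratio of signal to local background made by the authors' caller. The −log10 of its p-value, and of the q-value adjusted over peaks, are also the authors' values. The deposited score column was not used.

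Members and lists were chosen with earlier results of these data known. All 10 members are named. In other lists, genes against the list's majority, the 3 widest and 3 narrowest further B cell factors, and neighboring genes are named. TSSs of protein-coding transcripts (41451 positions) came from the GENCODE basic annotation, release 21 for mouse. Overlap meant at least 1 bp. Summit fragments were obtained by inverting fold and −log10 p under a Poisson model, to within 0.005 on that scale. Marks were compared with exact permutation tests over 20 assignments. Zone assignment was tested on simulated data. Python 3.11.15, numpy 2.4.6, pandas 2.3.3, scipy 1.17.1 and matplotlib 3.10.9 were used. Alternatives were other thresholds, distances, TSS sets, merging, overlaps, a replicate block and leaving out each library. A few genes and 1 sequence of the lists used are not reported here.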

Additional observations from a re-analysis of the deposited data

How the results depend on the processing

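H3K4me1 counts depended on the threshold. With peaks of −log10 q of at least 5, no factor (0) kept promoter or outer (0) H3K4me1 in every library, 3 had gene body H3K4me1, and 9 recurrent regions were left, of which 66.7% overlapped recurrent H3K4me3. With the 10000 best peaks of each library, 3 factors had promoter H3K4me1 in every library and 5 were wide, and 31 recurrent regions were left, of which 45.2% overlapped H3K4me3. The Bcl6 domain has a low mean −log10 q and was lost at that setting, so its contrast between marks turned to −562 bp. With 1 TSS per gene, 3 factors had promoter H3K4me1 and 5 were wide, because the TSSs of Mef2b, Mef2c and Pou2f2 that bear the wide peaks were left out. For Pou2f2 the start used was not a coding TSS. Its mean width there was 2203 bp, whereas all 3 coding TSSs lie together under the wide peak. Leaving out each library in turn gave 18 to 60 recurrent regions, lowest without H3K4me1 replicate 1 (21 without replicate 2 and 39 without replicate 3), of which 88.3% (without H3K4me3 replicate 1) to 100% (without H3K4me1 replicate 1) overlapped H3K4me3. Over all alternatives, 79 of 94 values behind a comparison stayed within their limit of change, as did 218 of 230 for single genes. These limits were wide, so the counts do not show that the values were stable. The Mef2c coverage contrast went from 13800 to 0 bp with 1 TSS per gene and stayed within its limit. So did the mean Bach2 width, which went from 4698 to 1004 bp with the 10000 best peaks. Same-numbered libraries of the marks did not deviate together (correlations of −0.001, 0.002 and −0.007 over 12286 genes). Libraries of different numbers gave equally small values (−0.006 to 0.007), so this cannot decide whether the numbers pair the samples. With a replicate block 10 of 10 factors had coverage differences of one sign, each at an exact sign-flip p-value of 0.25, the smallest that 3 pairs allow. Summits of 6 fragments limit what H3K4me1 can show, and H3K4me3 summits could not be inverted.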

Other observations

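The outer limit of 50 kb leaves out the far side of the Bcl6 locus. The intergenic stretch between Bcl6 and its upstream neighbor Lpp is known to hold GC enhancers of Bcl6. After the values had been seen, peaks were counted in 50 kb steps upstream of each factor. From 150 to 250 kb upstream of Bcl6 (chr16:24138852-24238851), where no other coding gene starts, the H3K4me1 libraries had 27, 22 and 16 peaks, a mean of 21.7 ± 5.51 (SD, n = 3). None (0) of the 21864 coding genes had a higher mean in the window at the same distance, and the median was 0.333. H3K4me3 peaks numbered 18, 19 and 20 there, and 5 coding genes had a higher mean. Nearer to the gene, the first 50 kb upstream held 3 H3K4me1 peaks in each library. This window was picked because its counts were the highest, so its rank is a description with no test.

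In the same window Pax5 had 12, 8 and 6 H3K4me1 peaks, with a higher mean at 1.02% of coding genes, and the neighboring gene Zcchc7, one coding start of which lies there, runs through part of the window. Tcf3 had 12, 4 and 4, with a higher mean at 2.07%, and other coding genes start there too. Mef2c had no peak of either mark in any step out to 250 kb upstream of its first TSS. Ebf1, which had the most gene body peaks, had 1, 0 and 0 H3K4me1 peaks from 150 to 250 kb upstream.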
